A study of Mus musculus with 12 samples.

Results

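Type 1 conventional dendritic cells (cDC1) were examined in mouse tumours of SCC35 cell lines profiled by 5′ single-cell RNA sequencing. The cells were selected on their own raw counts of unique molecular identifiers (UMIs, each standing for 1 captured transcript). A cell had to carry at least 1 UMI of Xcr1 or Clec9a and at least 5 UMIs of H2-Aa, H2-Ab1 and H2-Eb1 together, and no UMI of the C1q genes, of Cd3e, Cd3d or Cd3g, or of Ccr7. This gate kept 108 of 116375 cells that passed the quality filter and had a clear hashtag (0.0928%). The values of these 12 genes chose the members, so they are given below as a description and were not tested.

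The groups were 2 control lines (SCC35 Mif KO control 15 and control 18) and 2 Mif knockout lines (SCC35 Mif KO 19 and KO 24), taken at days 0, 6, 10 and 16 according to the deposited hashtag sheet. Live cells were sorted from dissociated tumours, with a hashtag antibody marking each tumour. From days 6 to 16 there were 18 control tumours, 17 KO tumours and 3 tumours that the sheet calls WT. The WT tumours entered no comparison between groups. All 3 entered the correlation with CD8 T cells, and 2 of them the comparisons of genes with other cell gates. Each genotype therefore rested on 2 lines. KO and control name the SCC35 line of a sample. KO or control cells and members are thus cells found in samples of that line, and the Mif genotype of the dendritic cells themselves is not labelled. The labels do not say whether a line is 1 clone, and the host strain, age and genotype were not given in the sources used here. Nothing in the labels says whether tumours came from separate animals, so p-values measure the spread between hashtags.

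Type 1 conventional dendritic cells are the subset of dendritic cells that takes up material from dying cells and displays it on MHC class I to CD8 T cells, a route called cross-presentation. Their development depends on the transcription factors IRF8 and BATF3, and their surface is marked by the chemokine receptor XCR1 and by CLEC9A, a receptor for exposed actin filaments of dead cells. After taking up antigen they can mature, switch on Ccr7 and leave for the lymph node.

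The 6 gene expression libraries held 11840 to 23100 assigned cells each, and the members numbered 4 to 30 per library. Mif transcripts followed the labels in the day 0 cells, at 2976 and 2671 CPM (counts of a gene per 1000000 UMIs) in control lines 15 and 18 against 46.3 and 226 CPM in KO lines 19 and 24. In Ptprc-negative tumour cells without C1q or Cd3 UMIs it stood at 2253, 2038, 187 and 694 CPM in the same order. Pairs of libraries shared cell barcodes, 709 assigned cells for the 2 mixed libraries, but no member's barcode occurred in more than 1 library. A further 3 to 11 barcodes in each of 4 libraries passed the gate without a clear hashtag and were left out.

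The members were sparse in the very genes that chose them. Clec9a had a UMI in 91 members and Xcr1 in 42, and 25 carried both. A single marker UMI placed 69 members in the gate, while 39 had at least 2, with a highest count of 8. The MHC class II sum ran from 5 to 318 with a median of 81 UMIs, and 7 members lay between 5 and 9. Members carried 739 to 17104 UMIs in all, with a median of 4120, and 72 of 108 had a UMI of Ptprc, the pan-leukocyte gene CD45.

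Among all assigned cells, 369 had an Xcr1 or Clec9a UMI. Of those outside the gate, 199 failed 1 condition and 62 failed more. The identity of these cells was described with 16 cDC1 genes that the gate did not use: Irf8, Naaa, Wdfy4, Ppt1, Cd24a, Itgae, Batf3, Cadm1, Tlr3, Snx22, Sept3, Clnk, Gcsam, Rab7b, Btla and Ifi205. Members had a median of 5 of the 16 and 78 of 108 had at least 3, but 5 members had none. Members with at least 2 marker UMIs had a median of 9 of the 16, and members with 1 marker UMI had a median of 3.

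Cells just outside the gate differed by the condition they failed. The 21 cells excluded by a single C1q UMI had a median of 7 of the 16 genes and Irf8 at 678 CPM, against 653 CPM in the members. The 71 cells with 2 or more C1q UMIs had a median of 3 and Irf8 at 129 CPM. Of the cells with a Ccr7 UMI, 51 met every other condition, with a median of 3 genes. At the MHC class II limit, the 7 members with a sum of 5 to 9 had a median of 2 genes and Cst3 at 1125 CPM, and the 4 cells with a sum of 3 or 4 had a median of 1 gene and Cst3 at 1482 CPM. The members with a sum of 10 or more had a median of 6 genes and Cst3 at 18048 CPM. Irf8 stood at 375 CPM in the 7 members, 988 CPM in the 4 cells and 674 CPM in the other members, an order unlike that of Cst3.

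**Figure D1:**
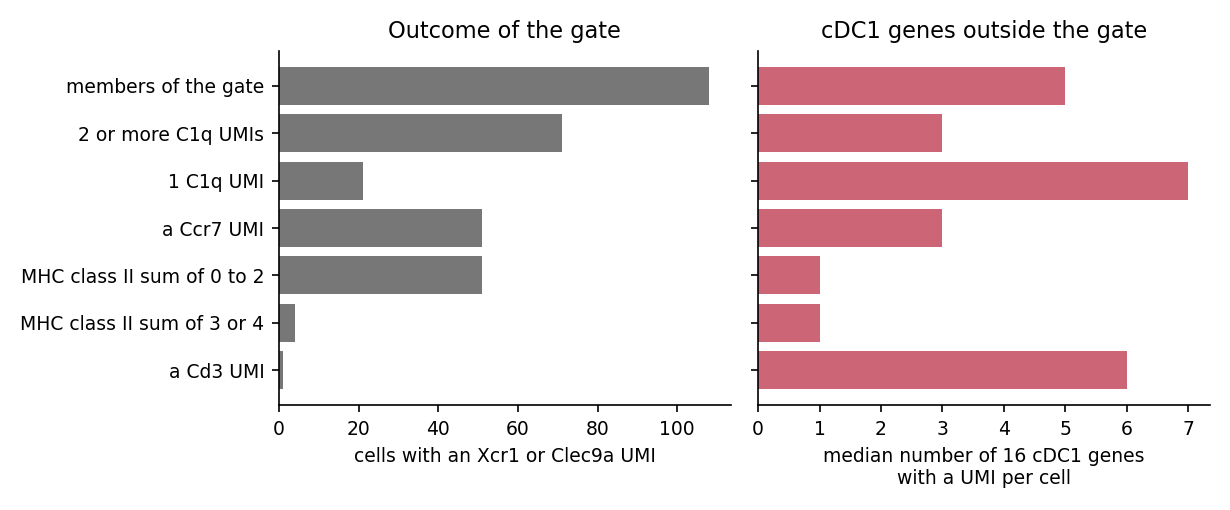
Cells with an Xcr1 or Clec9a UMI, by the gate condition they met or failed alone (left, number of cells), and the median number of 16 cDC1 genes outside the gate with a UMI in each kind of cell (right). The 108 members have a median of 5 genes, the 21 cells with 1 C1q UMI have 7, and the 51 cells with a low MHC class II sum of 0 to 2 have 1.

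Marker UMIs also occurred where the genes should be silent. They were found in 7 of 5542 T cells (0.126%, median depth 1970.5 UMIs), in 32 of 55693 Ptprc-negative cells without C1q, Cd3 or MHC class II UMIs (0.0575%, median depth 6696 UMIs) and in 2 of 5769 day 0 cells (0.0347%, median depth 8758 UMIs). Among 14611 macrophages with at least 3 C1q UMIs, 95 had one (0.650%, median depth 3402 UMIs). No day 0 cell passed the whole gate, and 0 of 5769 cells allows a share of up to 0.052% (3 counts of the total, counting error only).

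The members were described with 29 cDC1 identity genes found in the files. The list was chosen for this cell type with earlier results of these data known, so the counts are a description and do not test the label. No share over all genes stands beside them. All 29 had a UMI in the members, and all 29 were higher in the members' pooled counts than in a gate for type 2 conventional dendritic cells (cDC2, 491 cells with a Cd209a or Clec10a UMI, no Xcr1 or Clec9a UMI and otherwise the same conditions). Against a gate of 1038 cells with Ccr7, 27 of 29 were higher, Id2 and Zbtb46 being the exceptions. Irf8, the lineage factor, stood at 653 CPM in the members, 118 CPM in the cDC2 gate and 401 CPM in the Ccr7 gate. Naaa, an acid amidase typical of cDC1, stood at 583, 101 and 54.9 CPM in the same order. Wdfy4, which cDC1 need for cross-presentation, stood at 217, 34.1 and 27.0 CPM. Itgae, the integrin CD103 of tissue cDC1, stood at 98.1, 10.2 and 7.81 CPM. The members were uneven. Irf8 stood at 357 CPM in the 69 members with 1 marker UMI, below the Ccr7 gate, and at 1048 CPM in the 39 with at least 2. Of the 16 genes named above, the cDC2 and Ccr7 gates each had a median of 2, against 3 in the members with 1 marker UMI.

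The members were deeper than the other gates, with a median of 4120 UMIs against 2927 in the cDC2 gate and 3033 in the Ccr7 gate. Thinning each cell to 1000 UMIs left out 1 member, 17 cDC2 gate cells and 41 Ccr7 gate cells. Irf8 was then seen in 45.8% of members, 11.8% of cDC2 gate cells and 32.4% of Ccr7 gate cells. Naaa was seen in 35.5%, 13.3% and 6.12% of these cells, and Cd24a in 18.7%, 3.16% and 3.41%. Without thinning, Naaa had a UMI in 71 of 108 members. Batf3 was seen in 8.41% of thinned members and 7.32% of thinned Ccr7 gate cells, so it separated the members from the cDC2 gate, at 1.05%, more than from the Ccr7 gate.

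**Figure D2:**
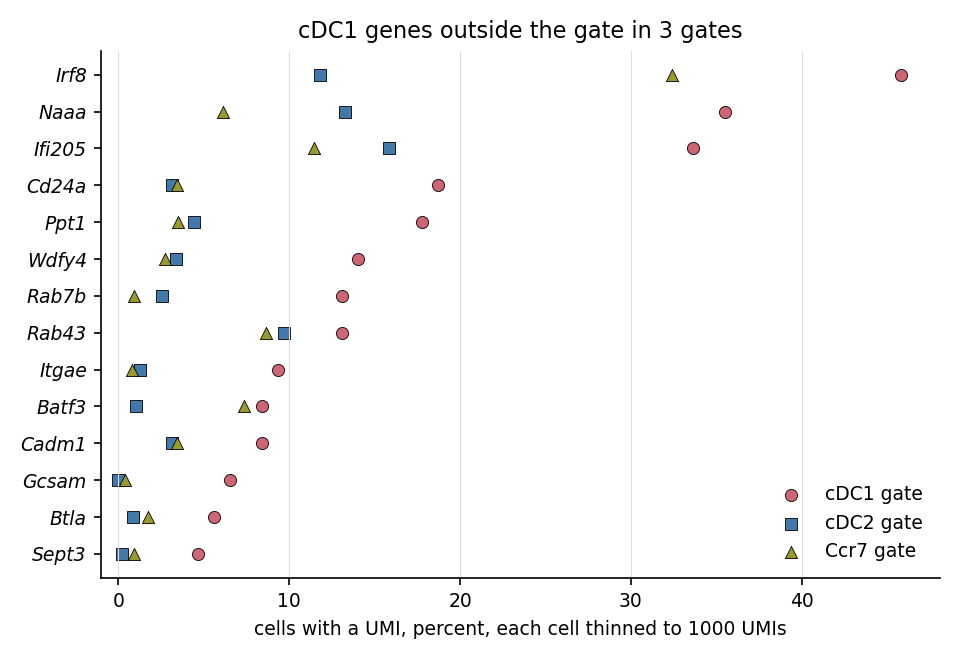
Percent of cells with a UMI of 14 cDC1 genes that the gate did not use, with every cell thinned to 1000 UMIs, in the cDC1 gate (107 cells), the cDC2 gate (474 cells) and the Ccr7 gate (997 cells). Irf8 reaches 45.8% in the cDC1 gate, and the Ccr7 gate comes nearest to it for Irf8 and Batf3.

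Markers of other cell types were read in the members' pooled counts. Neutrophil genes had 2 of 6 seen and S100a8 at 0, natural killer cell genes 3 of 7 with Ncr1 at 0, and keratinocyte genes 1 of 6 with Krt5 and Krt14 at 0. B cell genes summed to 28.3 CPM in 14 members, with Cd79a and Ms4a1 at 0. T cell genes had 5 of 8 seen, with Trac and Trbc2 at 0. Macrophage genes were all seen, 11 of 11, at a summed 1051 CPM against 7213 CPM in the C1q macrophages, and ranged from 131 to 1483 CPM between libraries. Lyz2 alone gave 617 of those CPM, while the macrophage marker Adgre1 had 1 UMI. Monocyte genes were also all seen, 8 of 8, at 1423 CPM against 1643 CPM in the cDC2 gate. The 6 fibroblast genes summed to 300.1 CPM in 36 members, and ranged from 19.5 to 749 CPM between libraries. Endothelial genes had 4 of 5 seen at 88.7 CPM, with Emcn at 0. Plasmacytoid dendritic cell genes summed to 1132 CPM, with Siglech in 5 members. The part of such transcripts in the results below was not tested.

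The cDC1 share was higher in KO than in control tumours when all assigned cells were the denominator. The share in the 17 KO tumours was lowest at 0%, had a median of 0.153% and was highest at 0.253%. In the 18 control tumours the lowest was 0%, the median 0.0325% and the highest 0.182%. The groups overlapped, and no member was found in 5 control tumours and 1 KO tumour. The means were 0.141% ± 0.0765 (SD, n = 17) and 0.0619% ± 0.0667 (SD, n = 18), and a 2-sided permutation test that shuffled groups within day gave p = 0.00225. Summed over tumours, members were 79 of 55010 cells in KO tumours and 22 of 46567 cells in control tumours. The exact binomial 95% intervals were 0.114 to 0.179% and 0.0296 to 0.0715% (counting error only).

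The difference depended on which lines entered. Line means were 0.0902% ± 0.0808 (SD, n = 9) in control 15, 0.0337% ± 0.0339 (SD, n = 9) in control 18, 0.112% ± 0.0769 (SD, n = 9) in KO 19 and 0.173% ± 0.0661 (SD, n = 8) in KO 24. Both KO means lay above both control means, but with 2 lines against 2 the exact permutation test cannot go below its value of p = 0.333. Without control line 18 the difference of 0.0509 percentage points had a permutation p of 0.104, and without KO line 24 the difference of 0.0505 points had p = 0.0636. In the single-line libraries, where library and line cannot be told apart, the permutation p was 0.0186. In the mixed libraries, which hold control and KO tumours together, it was 0.0463 (exact, n = 6 and 6). That test shuffled groups within day and not within library. Lines 15 and 19 were in mixed library 1 and KO line 24 in mixed library 2, so differences between these libraries were not removed.

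The median depth was 4934 UMIs in KO and 5271 in control cells, and 4147 in KO and 3881 in control members. Thinning each cell to 1000 UMIs left out 7.99% of KO and 5.96% of control cells. The shares were then 37 of 50613 KO and 8 of 43790 control cells, and the permutation p was 0.00012. The whole gate was applied again to the thinned counts, so cells that had failed it on C1q, Cd3 or Ccr7 UMIs could enter. In 1 day 10 tumour of control line 15 there were 0 members before thinning and 1 after. The same holds for the other shares of thinned cells below.

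The share was also taken among Ptprc-positive cells. Members with a Ptprc UMI made up 0.423% ± 0.278 of the Ptprc-positive cells in KO tumours (SD, n = 17, median 0.483%, range 0 to 0.903%) and 0.231% ± 0.279 in control tumours (SD, n = 18, median 0.125%, range 0 to 0.798%; permutation p = 0.0437). Ptprc-positive cells were 21.8% of KO and 17.2% of control cells. The call was lost in 8 of 13 alternatives, among them thinning (p = 0.141) and leaving out control 18 (p = 0.407) or KO 24 (p = 0.191), all by permutation test. With all members in the numerator, with or without a Ptprc UMI, the difference was 0.346 points (permutation p = 0.00407), an alternative added after the data were seen.

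The other gates were compared in the same way. The Ccr7 gate's share of all cells was 0.425 percentage points higher in KO tumours (permutation p = 0.0177), and that of the cDC2 gate was 0.135 points higher (p = 0.0932, permutation test). Within the 3 gates together, members were 7.55% of the dendritic cells in 16 KO tumours and 4.51% in 17 control tumours (permutation p = 0.0377). These 3 comparisons were added after the data were seen.

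**Figure D3:**
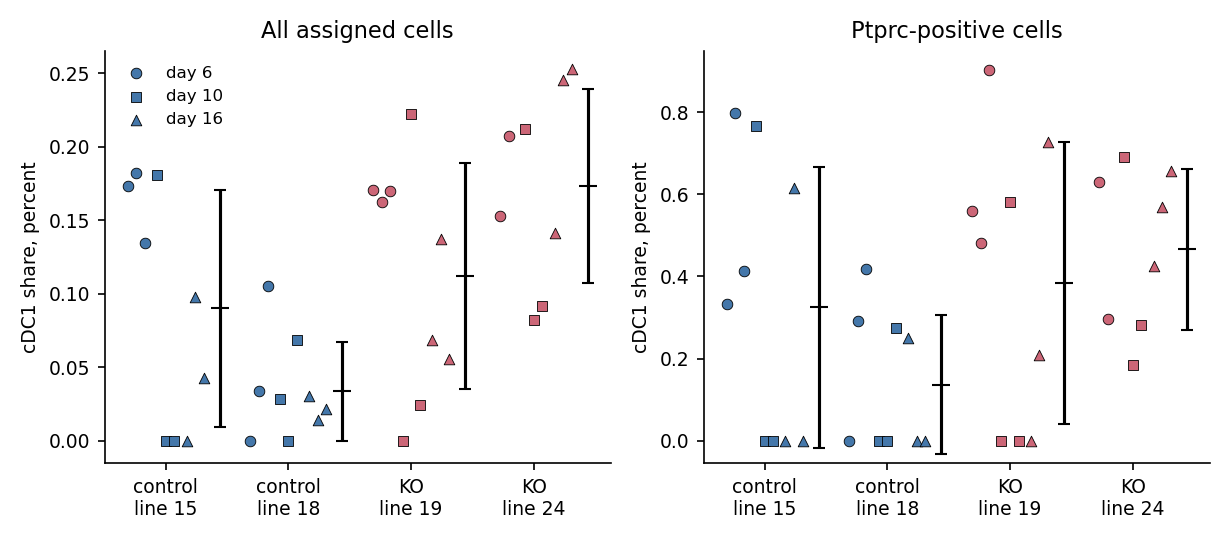
Share of cDC1 gate cells in each tumour of days 6, 10 and 16, among all assigned cells (left) and among Ptprc-positive cells (right, members with a Ptprc UMI), by line, in percent. Bars give the mean and 1 SD of each line; KO 24 has no tumour at 0 in either panel, and control 18 has the lowest mean in both, 0.0337% of all cells and 0.137% of Ptprc-positive cells.

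Over time the share of Ptprc-positive cells was 0.4656% ± 0.252 on day 6 (SD, n = 11) and 0.288% ± 0.295 on day 16 (SD, n = 12). The day 6 tumours ranged from 0 to 0.903% with a median of 0.418%, and those of day 16 from 0 to 0.727% with a median of 0.230%. The difference did not pass a permutation test that shuffled days within line (p = 0.110), and of 11 alternatives it passed in 1, without KO line 24 (-0.266 points, permutation p = 0.0478). With cells thinned to 1000 UMIs the difference turned to 0.0283 points (permutation p = 0.780). Summed over control tumours, members were 11 of 11273 cells on day 6, 5 of 13087 on day 10 and 6 of 22207 on day 16. Over KO tumours they were 25 of 14428 (0.173%), 18 of 20321 (0.0886%) and 36 of 20261 cells (0.178%), lowest on day 10. The gap between KO and control was not shown to differ between day 6 and day 16 (0.0892 points, permutation p = 0.701).

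CD8 T cells, the cells that cDC1 present to, were compared with the members across 38 tumours as shares of Ptprc-positive cells. Pearson's r was -0.0479 (permutation p = 0.779) and Spearman's rho -0.0333 (permutation p = 0.842). Without the 2 tumours farthest from the median cDC1 share, r was 0.024. With thinned cells r was 0.177 (permutation p = 0.286), and as shares of all assigned cells it was 0.314 (permutation p = 0.0543), so the sign depended on the setting. Within the 5 libraries of at least 6 tumours r ran from -0.714 to 0.244, and the lowest exact p was 0.0944, in the library of line 19 (n = 6, adjusted p = 0.566 over 6 relations). Tumours held 0 to 18 members.

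Gene levels in the members were compared between KO and control tumours on summed UMIs per tumour, in 13 control and 16 KO tumours with at least 1 member. None of the 247 genes that passed the count filter was called at an adjusted p of 0.05 with edgeR's quasi-likelihood test (0.0%), and 33 had an unadjusted p under 0.05. With the filter lowered to 2 counts, 0 of 1525 genes were called (0.0%), and 161 had an unadjusted p under 0.05. DESeq2 called 3 genes of the 247, all lower in KO: Arpc1b, Zfp36 and Fxyd5. With at least 2 members per tumour, 9 genes were called, all lower in KO, and with no count filter 24 were called, 22 of them higher. Only 1 tumour held 10 or more members.

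Ifitm1 had the lowest log2 fold change of the 247 genes, was not called, and was singled out after its values were seen, as was Arpc1b. It encodes an interferon-inducible membrane protein that restricts virus entry. Pooled over members it stood at 3930 and 4219 CPM in control lines 15 and 18, and at 628 and 470 CPM in KO lines 19 and 24. In the 13 control tumours it ranged from 0 to 12941 CPM with a median of 0, and in the 16 KO tumours from 0 to 5145 CPM with a median of 117 CPM. The groups overlapped, with 7 control and 4 KO tumours at 0, and 3 members carried 55.4% of the 406 UMIs of the control members. By edgeR, KO against control gave a log2 fold change of -2.88 (SE 0.918) with an adjusted p of 0.231. The edgeR adjusted p was 0.0087 for 1 sum per line, 0.035 for tumours with at least 2 members, 0.738 with library as a term and 0.941 without KO line 24. With library as a term the KO difference rests on the mixed libraries alone, which held 27 KO and 8 control members.

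In both other gates the control lines also stood above the KO lines for Ifitm1, which was not tested. In the cDC2 gate it stood at 2037 and 1634 CPM in control lines 15 and 18 and at 403 and 781 CPM in KO lines 19 and 24. In the Ccr7 gate it stood at 1689 and 1391 CPM against 264 and 568 CPM. In the C1q macrophages it was low in all 4 lines, from 33.8 to 95.7 CPM.

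Zfp36, which binds and destabilises cytokine mRNAs, had a median of 1763 CPM in control tumours (range 0 to 3608) and 797 CPM in KO tumours (range 346 to 1611). EdgeR gave a log2 fold change of -1.22 (SE 0.356) and an adjusted p of 0.204, and -0.32 with library as a term. Arpc1b, a subunit of the actin-nucleating Arp2/3 complex, had a median of 1224 CPM in control tumours (range 420 to 3074) and 771 CPM in KO tumours (range 274 to 1611). EdgeR gave a log2 fold change of -0.85 (SE 0.224) and an adjusted p of 0.171, and -0.03 with library as a term. The values of Zfp36 and Arpc1b with library as a term rest on the mixed libraries alone. For both genes the tumours of the groups overlapped, and both had an edgeR adjusted p of 0.0488 with at least 2 members per tumour.

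**Figure D4:**
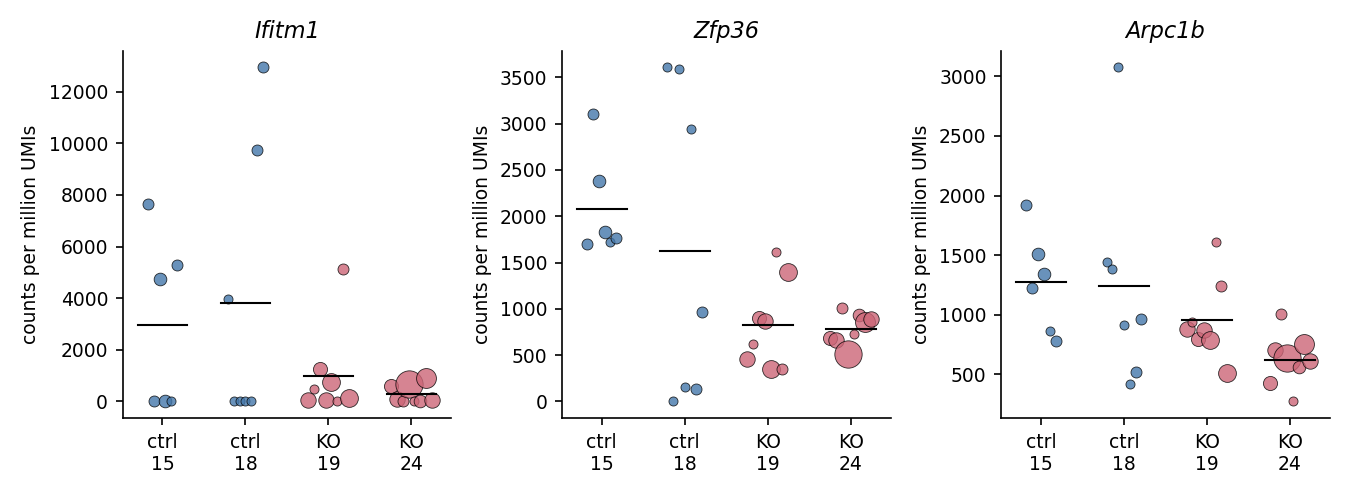
Ifitm1, Zfp36 and Arpc1b in CPM in the summed members of each tumour, by line; a point is 1 tumour, its size grows with the number of members (1 to 18), and the line is the mean over tumours. Many Ifitm1 points are at 0, and the highest control tumour stands at 12941 CPM and the highest KO tumour at 5145 CPM.

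Gene lists were compared by their medians. The 7 genes of MHC class I presentation that were tested had a median log2 fold change of -0.0044, the 5 of MHC class II presentation -0.27, the 3 of the interferon response -0.09 and the 4 stress genes -0.34, against 0.02 for all 247 genes, and none of their genes was called. The 4 identity genes tested had a median of -0.21. With the filter at 2 counts the median over all genes moved to 0.20. The medians of 4 lists then turned positive: 0.26 for MHC class I (17 genes), 0.04 for class II (9), 0.075 for interferon (12) and 0.28 for stress (14). That of 14 identity genes stayed negative at -0.03. The sign of the other 4 lists depended on the filter, which also changed the genes tested. Against the median over all genes, class I and stress moved from below to above. The class II, interferon and identity lists lay below it at both filters. Mif in the members was at 661, 1172, 468 and 836 CPM in lines 15, 18, 19 and 24. Irf8 was at 956 and 961 CPM in control lines 15 and 18 and at 835 and 374 CPM in KO lines 19 and 24, with a log2 fold change of -0.77 that was not called. Pooled fibroblast genes were at 19.97 CPM in control and 390 CPM in KO members, macrophage genes at 1467 and 984 CPM, and monocyte genes at 998 and 1589 CPM. Their part in these values was not tested.

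Between day 16 and day 6 none of the 247 genes was called by edgeR (0.0%), with 17 at an unadjusted p under 0.05, and none of 1525 with the filter at 2 counts (0.0%), with 91 under 0.05. DESeq2 called Ahnak alone. Ahnak, a large scaffold protein, had a log2 fold change of -1.32 (SE 0.383, adjusted p by edgeR 0.313).

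Members with transcripts of dividing cells were counted. At least 3 UMIs of 9 mitotic genes such as Mki67, Top2a and Cdk1 were present in 17 of 108 members (15.7%, exact binomial 95% interval 9.45 to 24.0%, counting error only), in 18.9% of the cDC2 gate and in 17.6% of the Ccr7 gate. They were 3 of 22 control, 13 of 79 KO and 1 of 7 WT members, and 5 of 41 on day 6, 6 of 25 on day 10 and 6 of 42 on day 16.

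Members were compared with the cDC2 gate, which was also selected on measured values, in the same 31 tumours, with the tumour as a block. Of 320 genes tested, 35 were higher (10.9%) and 42 lower (13.1%) in the members by edgeR at an adjusted p of 0.05. Without KO line 19 there were 28 calls in place of 77, without members of high UMI counts 45, and with members thinned to 1000 UMIs 13. Genes of either gate were left out of the tests. A gene could pass the count filter through 1 gate alone, and then a difference was built in. Cst3, the protease inhibitor cystatin C that is abundant in cDC1, had a median of 16793 CPM in the members (range 0 to 39447) and 3316 CPM in the cDC2 gate (range 0 to 9698). It was higher in the members of 29 of 31 tumours, with a log2 fold change of 2.17 (SE 0.203, adjusted p by edgeR 3.8e-10). Psap, the precursor of the lysosomal saposins, was also higher in 29 of 31 tumours (log2 fold change 1.41, SE 0.160, adjusted p by edgeR 2.6e-08).

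Of the genes that serve MHC class I, Psmb8 and Psme1 were higher in the members. Psmb8, a catalytic subunit of the immunoproteasome, had a median of 913 CPM in the members and 499 CPM in the cDC2 gate, and was higher in 26 of 31 tumours (log2 fold change 1.03, SE 0.193, adjusted p by edgeR 0.00014). Psme1, a subunit of its activator PA28, was higher by a log2 fold change of 0.90. B2m, H2-K1 and H2-D1 had log2 fold changes of -0.19, -0.15 and -0.15. Of the 8 genes of MHC class I presentation tested, 2 were higher and none lower, against 10.9% and 13.1% of all genes, with a median log2 fold change of 0.27 against -0.04 for all 320 genes. None of the 6 genes of MHC class II presentation was called, and Cd74, the invariant chain, had a log2 fold change of 0.37.

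Lower in the members were S100a4 and Fth1. S100a4, a calcium-binding protein of motile cells, had a median of 856 CPM in the members and 2981 CPM in the cDC2 gate (log2 fold change -1.39, SE 0.239, adjusted p by edgeR 3.8e-05) and was higher in the members of 3 of 31 tumours. Fth1, the ferritin heavy chain, had a median of 5006 CPM against 9240 CPM and was higher in the members of 2 of 31 tumours (log2 fold change -0.88). Emp3, a membrane protein, and Jun, an immediate early gene, had log2 fold changes of -0.85 and -0.63. Jun was the 1 stress gene called lower of 6, near the 13.1% of all genes.

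Lowering the count filter to 2, added after the data were seen, put 10 of the 29 identity genes in the test in place of 1, and the median log2 fold change over all 1640 genes was -0.15. It called 65 genes higher (3.96%) and 186 lower (11.3%). Of 10 cDC1 identity genes, 9 were higher: Irf8, Naaa, Wdfy4, Ppt1, Ifi205, Cst3, Id2, Jaml and Rab43, with a list median of 1.88. These genes were listed because cDC1 are known for them, and they could pass the filter through the members alone, so the count is a description. Naaa had a median of 549 CPM in the members and 97.0 CPM in the cDC2 gate, and was higher in 26 of 31 tumours. Ppt1, a lysosomal thioesterase, stood at 259 CPM in the members' pooled counts and 43.9 CPM in the cDC2 gate.

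At this filter more genes of antigen processing were tested. Of 17 genes of MHC class I presentation, 5 were higher, namely Psmb8, Psmb9, Psme1, Tap2 and Wdfy4, and none was lower, against 3.96% and 11.3% of all genes. Wdfy4 is also on the cDC1 identity list and could pass the filter through the members alone, so its call is a description. Psmb9, the partner subunit of Psmb8, had a log2 fold change of 1.49, and Tap2, a subunit of the peptide transporter into the endoplasmic reticulum, of 0.92. Mpeg1, the pore-forming perforin-2, was higher by 2.35 in 29 of 31 tumours, and the adhesion receptor gene Slamf7 by 1.05. Mpeg1 had medians of 355 CPM in the members and 71.8 CPM in the cDC2 gate. Both genes may have passed the filter through the members, so their values are a description.

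Of 8 cytokine and chemokine genes 2 were lower at this filter, Cxcl10 and Il1b, against 11.3% of all genes. The cDC2 list names the cell type that the cDC2 gate was drawn on. Its 2 lower genes of 5, Ms4a4c and Il1b, are therefore a description. Clec4n, the fungal receptor Dectin-2, had a log2 fold change of -2.36, which like the others at this filter is a description where a gene is low in 1 gate. The inhibitory receptor gene Lilrb4a, Ms4a4c and the actin-capping Capg were lower at a log2 fold change of -1.88, -1.88 and -1.58. Cd14, the lipopolysaccharide co-receptor, Cxcl10, a chemokine for T cells, and Il1b were lower at a log2 fold change of -1.56, -1.40 and -0.56, and Zeb2, a factor that opposes the cDC1 fate, at -0.96. Cxcl9, the other T cell chemokine, stood at 425 CPM in the members and 302 CPM in the cDC2 gate and was not called.

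The Ccr7 gate, which holds mature dendritic cells, was compared in the same way. Of 488 genes, 68 were higher (13.9%) and 112 lower (23%) in the members. Without KO line 19 there were 115 calls in place of 180, and with members thinned to 1000 UMIs 26. Ccl5, a chemokine for T cells, had a median of 0 CPM in the members, with 24 of 31 tumours at 0, and 1338 CPM in the Ccr7 gate. Fscn1, the actin bundler of mature dendritic cells, had medians of 0 and 750 CPM, with 26 of 31 tumours at 0 in the members. Fabp5, a fatty acid carrier, had medians of 0 and 1401 CPM, with 16 of 31 tumours at 0 in the members. These 3 genes passed the count filter through the Ccr7 gate, where they are high, so their calls are no support and are not given. The NF-κB subunit gene Rel was lower at a log2 fold change of -1.15.

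Psap was higher in the members than in the Ccr7 gate in 31 of 31 tumours, with medians of 2754 and 683 CPM (log2 fold change 1.83, SE 0.124, adjusted p by edgeR 1.6e-15). Plbd1, a phospholipase, had medians of 652 CPM in the members and 122 CPM in the Ccr7 gate. H2-DMb1 and H2-DMa, the 2 chains of the chaperone that loads peptide on MHC class II, had medians of 782 and 549 CPM in the members and 222 and 243 CPM in the Ccr7 gate. The low levels of Plbd1 and the H2-DM genes in the Ccr7 gate mean that they may have passed the filter through the members, so they are described by level. MHC class I molecules went the other way, with B2m, H2-K1 and H2-D1 lower at -0.67, -0.74 and -0.52. Of the 11 class I presentation genes tested, 6 were higher and 4 lower, against 13.9% and 23% of all genes, with Psmb9 at 0.71, Psmb8 at 0.43 and Psme2 at -0.68. Irf8 and Cst3 were higher by 0.72 and 0.80. With the filter at 2 counts Irf8 (0.47), Psmb8 (0.16) and Cd74 (0.28) were not called. The sign of Psmb8, Psmb9, Psme1, Irf8, Cst3 and Cd74 (0.61) reversed when no count filter was used, and with the filter at 2 counts 2 class I genes were higher and 6 lower of 17, against 4.07% and 26.3% of all genes.

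With the filter at 2 counts the members had 99 genes higher (4.07%) and 640 lower (26.3%) of 2435 against the Ccr7 gate, and a median log2 fold change of -0.29 over all of them. The mature dendritic cell list names the state the Ccr7 gate was drawn on, and its genes entered the test through that gate, so it is described by level alone. Of its 24 genes 22 had a UMI in the members, at a summed 1234 CPM against 7295 CPM in the Ccr7 gate and 1393 CPM in the cDC2 gate. Cd40 stood at 60.4 CPM in the members and 207 CPM in the Ccr7 gate, and the checkpoint ligand gene Cd274 at 90.6 and 176 CPM. Il12b, the interleukin-12 subunit that cDC1 make on activation, had 3 UMIs in 3 of 108 members, 5.66 CPM against 251 CPM in the Ccr7 gate. Of the costimulation and checkpoint genes outside that list, Cd86 and Cd80, the ligands of CD28, had log2 fold changes of -0.70 and -0.93, and Slamf7 of 0.84. Of 13 identity genes, a list that describes the gated cells and supports nothing, 9 were higher, with Cd24a at 2.64, Wdfy4 at 2.49 and Ppt1 at 2.33. Mpeg1 was higher by 2.83, and Lyz2, a lysozyme of macrophages and monocytes, by 1.92. Mpeg1 had medians of 355 CPM in the members and 37.6 CPM in the Ccr7 gate. Both genes may have passed the filter through the members, so their values are a description.

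**Figure D5:**
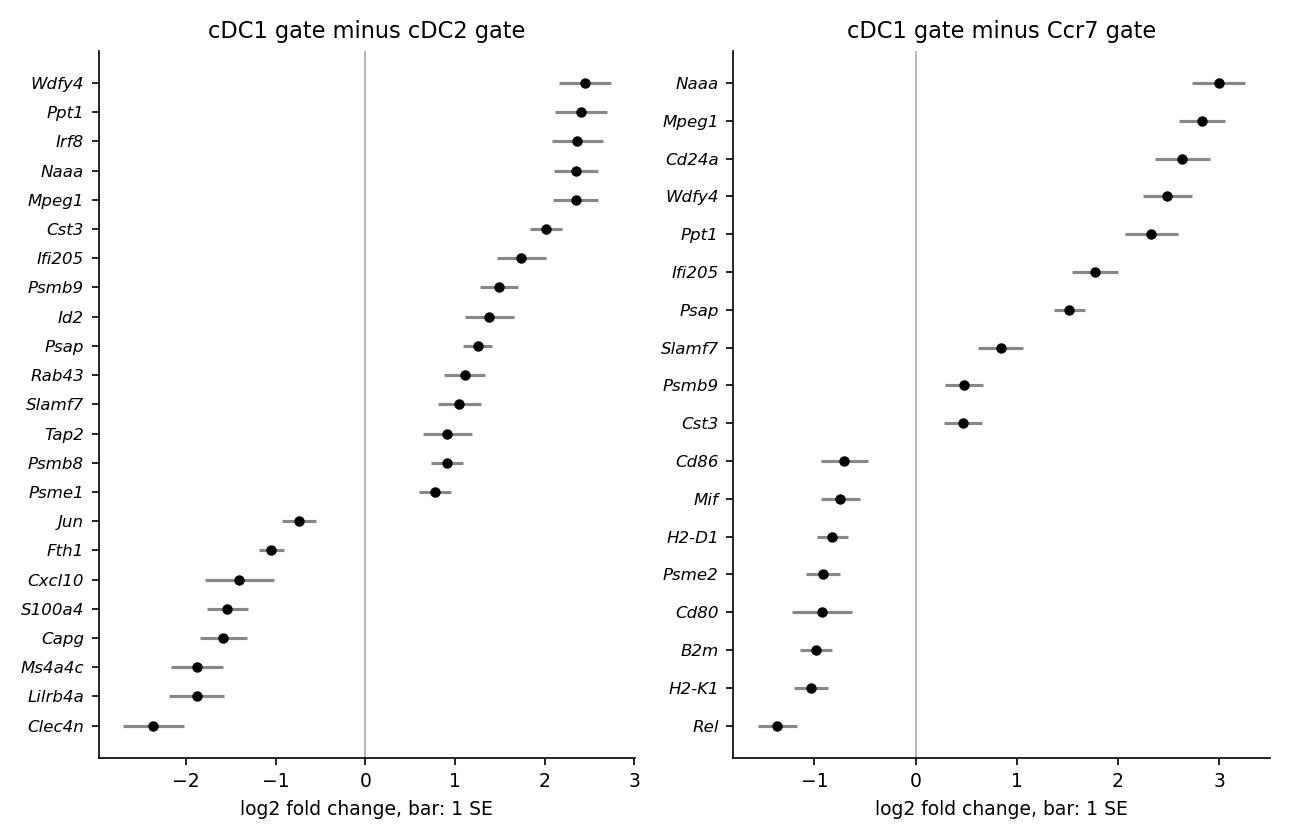
Log2 fold changes with 1 SE, filter at 2 counts, between the summed cDC1 gate cells and the cDC2 gate (left) or the Ccr7 gate (right) of 31 tumours, for a selection of the genes tested, some of which passed the filter through 1 gate alone; positive values are higher in the cDC1 gate. The points run from 2.45 for Wdfy4 to -2.36 for Clec4n on the left, and from 2.997 for Naaa to -1.37 for Rel on the right.

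Further genes for which dendritic cells are known had few UMIs in the members. The nucleic acid sensor gene Tlr3 had UMIs in 7 members, Clnk in 3, Snx22 in 5 and the chemokine receptor gene Cxcr3 in 5. Gcsam had UMIs in 18 members (49.1 CPM) and none in the cDC2 gate. Flt3, the growth factor receptor that dendritic cells depend on, was at 58.5 CPM in the members, 14.1 CPM in the cDC2 gate and 51.4 CPM in the Ccr7 gate. Ly75, the uptake receptor DEC-205, was at 39.6, 7.67 and 92.0 CPM in the same order. It may have passed the filter at 2 counts through the Ccr7 gate, where it is high, so it is described by level. Dnase1l3, a nuclease of dead cell DNA, was at 81.2, 6.82 and 35.4 CPM. Irf4, the factor of cDC2, had 1 UMI in the members against 21.7 CPM in the cDC2 gate. The members were not free of other cDC2 transcripts. Of the 15 genes of the cDC2 list, 14 had a UMI in the members, and 100 members had a UMI of the list. The list summed to 1665 CPM in the members, 3163 CPM in the cDC2 gate and 1882 CPM in the Ccr7 gate.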

How the data were processed

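The authors deposited filtered count matrices of gene UMIs and hashtag counts per barcode, made with Cell Ranger 6.0.0 and the mm10 build per the submitters' processing notes, and a sheet of hashtags. Cells had at least 300 genes, at most 15% mitochondrial UMIs, and a top hashtag of at least 20 counts and 3 times the second. The hashtag ratio removes doublets across tumours only; leaving out members above 2 times the median UMI count of their gate and library was an alternative. Macrophages for comparison had at least 3 C1q UMIs and T cells at least 2 Cd3 UMIs. The members, gene lists and the 16 genes were chosen with earlier results of these data known. Gene tests used summed counts per tumour, filterByExpr, TMM scaling and edgeR 4.0.16 (glmQLFit, glmQLFTest) in R 4.3.3 with Benjamini-Hochberg adjustment, day as a covariate between groups and the tumour as a block between gates, where both gates come from the same tumour. DESeq2 1.42.0 was an alternative. The planned minimum of 10 cells per tumour left 1 tumour, so tumours with at least 1 member were used. CPM are counts over all UMIs of the cells summed. Shares were compared by permutation with 100000 resamples, or exactly where there were fewer arrangements, over tumours with at least 50 Ptprc-positive cells where those were the denominator. The scripts were tested on simulated counts. With 4-fold changes and a dispersion of 0.2, all of the changed genes were recovered (100%), with 3.17 to 8.27% false calls. The simulation gave every gene the same dispersion and no difference between lines or tumours. It therefore does not show that a 4-fold change would be called in these data. Named genes were gate genes, list members, and the 10 largest called changes each way with a mean log2 CPM of at least 5 and the same sign in at least 90% of tumours.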

Additional observations from a re-analysis of the deposited data

Results flagged for a closer look

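Among 28 sets of tumours of 1 line, 2 held a tumour far from the rest, and chance gives about 1 in 20. In line 19, Ifitm1 in the members stood at 5145 CPM in 1 day 16 tumour of a mixed library, with 2 members and 29 UMIs, against 1275 CPM in the next of 8 tumours. In line 18, Arpc1b stood at 3074 CPM in 1 day 16 tumour with 1 member and 6 UMIs, against 1443 CPM in the next of 7 tumours.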

How the results depend on the processing

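The KO difference in the share of all cells kept its side of the threshold in 8 of 11 alternatives; leaving out a line gave 0.0505 to 0.111 percentage points, and 1 mean per line gave 0.0809. For the share of Ptprc-positive cells the range without a line was 0.098 to 0.286 points, and the call was lost with thinned cells (0.117), a stricter hashtag call (0.191), at least 2 Ptprc UMIs (0.104), the single-line libraries (0.139), the mixed libraries (0.293) and 1 mean per line (0.194). The day difference was -0.266 to -0.118 points without a line and 0.0283 with thinned cells. The CD8 correlation was -0.277 to 0.0536 without a line, 0.177 with thinned cells, 0.314 as shares of all cells and 0.024 without the 2 farthest tumours. For KO against control, 3 genes were called by DESeq2, 24 without a filter (22 higher), 9 with at least 2 members per tumour, 1 for 1 sum per line (Ifitm1), and 0 to 2 without a line; for day 16 against day 6, 1 by DESeq2, 4 without a filter and 0 to 0 without a line. Against the cDC2 gate the 77 calls became 1746 without a filter (4.35% higher, against 45.5%), 251 with the filter at 2 counts (25.9%), 28 to 79 without a line (28 without KO 19), 45 without members of high UMI counts and 13 with thinned members. Against the Ccr7 gate the 180 calls became 3683 without a filter (3.64% higher, against 37.8%), 739 at 2 counts (13.4%), 115 to 176 without a line (115 without KO 19) and 26 with thinned members. Without the tumour as a replicate block there were 85 and 187 calls, with no call count moved by over 1.5 times. Against the Ccr7 gate, no filter also reversed Hnrnpa3 (-0.31), Pdia3 (-0.32), Cst3 (-0.0447), Sec61b (-0.36), Calr (-0.27), Irf8 (-0.0527), Psme1 (-0.41), Csf2rb (-0.12), Psmb9 (-0.0404), Psmb8 (-0.37) and Cd74 (-0.24), and leaving out members of high UMI counts reversed Psme1 (-0.0187). Fewer genes were tested after thinning and without KO 19; the cause of the other shifts was not tested. At least 5 or 20 cells per tumour could not be fitted. Tumours held at most 18 members.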
